A study of Drosophila melanogaster with 2 samples.

Results

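Ribosomal protein (RP) genes encode the protein components of the cytoplasmic ribosome. Binding of the transcription factor toy at these genes was read from the chromatin immunoprecipitation sequencing (ChIP-seq) peak lists of a single group of Drosophila melanogaster embryos. Members were the protein-coding genes whose symbol is RpL, RpS or RpLP followed by a digit, mitochondrial RP genes (mRp) not included. The annotation held 92 such genes among 13968 protein-coding genes, 54 of the large subunit and 38 of the small subunit. A peak was given to the protein-coding gene with the transcription start site (TSS) closest to its summit. Membership rests on the symbol and on no measured value, but the set was chosen with earlier results of these data known.

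Both samples came from whole embryos aged 0 to 24 h of a strain labelled toy-GFP, whose transgene makes a toy-eGFP fusion protein. The 2 biological replicates form 1 group with the same genotype and age, and there is no second condition to compare. The fusion was precipitated with an antibody against GFP from chromatin sonicated to 200 to 800 bp, while another label field names the antibody only as toy. The sources used here do not say what drives the transgene or whether the strain keeps its own toy gene intact. Every tissue and age of the collection is mixed, so the cells that carry a peak cannot be told from these lists. The control experiment that the labels point to was not analysed here, and no untagged or input signal stands beside the values.

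Each ribosome has a small subunit, which reads the messenger RNA, and a large subunit, which joins the amino acids. Their proteins are made in near equal numbers, from genes scattered over the genome that are among the most strongly transcribed in growing cells. Many fly RP genes start transcription within a run of pyrimidines, the TCT initiator, in place of the usual initiator. Loss of 1 copy of many of them gives the Minute phenotype of slow growth and thin bristles. Twin of eyeless, written toy, belongs to the Pax6 family of factors with a paired domain and a homeodomain, best known for its place upstream of eyeless in eye development.

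The promoters of 6 RP genes with strong peaks, among those whose sequence is printed here, show where the peaks sit. Each window is read 5′ to 3′ on the strand of the gene from the RefSeq release 6 genome (dm6 coordinates), with 100 bases before the TSS closest to the summit and 50 bases from the TSS on. Capitals mark exact matches to the fixed elements searched on either strand, which are described with their counts further on, and to TCTTT with its C within 5 bp of that TSS. The windows are RpS27 at chr3R:25247465-25247614 on the minus strand, RpL32 at chr3R:30046112-30046261 on the minus strand, RpS28b at chrX:9554523-9554672 on the plus strand, RpL14 at chr3L:8600906-8601055 on the plus strand, RpS21 at chr2L:2855970-2856119 on the plus strand and RpS20 at chr3R:20822081-20822230 on the plus strand.
RpS27: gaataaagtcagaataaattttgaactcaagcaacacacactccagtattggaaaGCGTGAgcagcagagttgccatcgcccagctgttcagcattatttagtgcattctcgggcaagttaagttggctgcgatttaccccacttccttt
RpL32: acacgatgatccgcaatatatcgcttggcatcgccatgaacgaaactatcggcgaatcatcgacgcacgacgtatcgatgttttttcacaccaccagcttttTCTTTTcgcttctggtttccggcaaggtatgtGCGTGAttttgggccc
RpS28b: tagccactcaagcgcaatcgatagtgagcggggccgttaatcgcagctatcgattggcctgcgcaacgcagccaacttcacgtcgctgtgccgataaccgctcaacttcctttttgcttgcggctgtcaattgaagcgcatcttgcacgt
RpL14: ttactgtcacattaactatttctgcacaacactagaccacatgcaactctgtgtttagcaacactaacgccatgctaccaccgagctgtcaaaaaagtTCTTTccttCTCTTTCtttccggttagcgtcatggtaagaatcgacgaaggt
RpS21: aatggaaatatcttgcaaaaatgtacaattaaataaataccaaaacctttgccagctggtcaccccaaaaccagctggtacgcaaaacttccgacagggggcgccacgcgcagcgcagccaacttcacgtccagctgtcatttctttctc
RpS20: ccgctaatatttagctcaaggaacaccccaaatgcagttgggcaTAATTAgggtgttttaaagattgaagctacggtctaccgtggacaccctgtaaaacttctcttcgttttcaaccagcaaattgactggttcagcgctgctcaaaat
In RpS27 the capitals are GCGTGA, the reverse complement of the paired domain core TCACGC, 45 bases before the TSS. RpL32 and RpL14 have a pyrimidine run with its C within 5 bp of the TSS used here, and RpL32 also has GCGTGA 34 bases downstream. RpS20 has the homeodomain core TAATTA 56 bases upstream, and the windows of RpS28b and RpS21 hold none of the elements. The RpS21 window does hold TCTTT by the canonical TSS of the gene, downstream of the TSS used here. It is printed further on and is not in capitals in this window.

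In the conservative list, the series' stricter list made from both replicates, 31 of the 92 RP genes had a peak, which is 33.7% with a Wilson 95% interval of 24.9% to 43.8%. Over all protein-coding genes 1152 of 13968 had one, or 8.25%. The shares of the subunits lay within each other's intervals, with 18 of 54 large-subunit genes (33.3%, interval 22.2% to 46.6%) and 13 of 38 small-subunit genes (34.2%, interval 21.2% to 50.1%). In the pooled list, the series' more permissive list, 43 RP genes had a peak (46.7%), 27 of the large and 16 of the small subunit, against 10.6% of all genes. The list of replicate 1 alone gave 18 RP genes (19.6%) against 5.63% of all genes, and that of replicate 2 gave 25 (27.2%) against 6.63%. In each of the 4 lists the RP share was above the share of all genes. The intervals cover counting error over genes only. Genes are not replicates, and no test across samples can be made with 1 group.

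**Figure D1:**
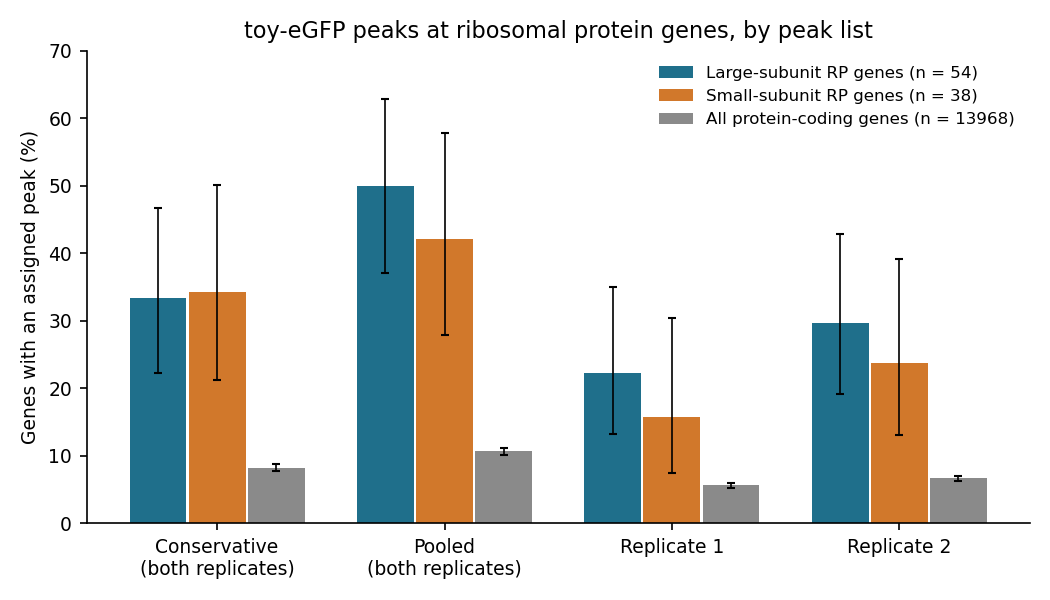
Percent of genes with an assigned peak in each of the 4 thresholded lists, for large-subunit RP genes, small-subunit RP genes and all protein-coding genes; whiskers are Wilson 95% intervals. Both subunits stand above the bar of all genes in every list, and their intervals overlap each other.

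A peak in at least 1 of the 4 lists was found at 48 RP genes, 31 of the large and 17 of the small subunit, and 44 genes had none. The share of all protein-coding genes with a peak in any of the 4 lists was not counted, so the 48 is given without a comparison. Among the large-subunit proteins near the exit of the peptide tunnel, the genes RpL17, RpL19, RpL23A, RpL26 and RpL31 had a conservative peak, RpL35 had one in the pooled list, and RpL39 had none. Of the pair that carries 5S rRNA into the subunit, RpL11 had a conservative peak of 140 and RpL5 had no listed peak. Of the stalk that recruits translation factors, RpLP0 had a peak of 80.3 in the pooled list, and RpLP1 and RpLP2 had none. Both genes whose product is made as a fusion with ubiquitin, RpL40 and RpS27A, had none. RpS6, the small-subunit protein phosphorylated downstream of Tor, and RpS3, at the entry of the messenger RNA channel, also had none. RpS12, which in flies is needed for RP-mutant cells to be outcompeted by their neighbours, had a conservative peak of 112.

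The lists do not show how far below the threshold the other genes lie, so the ranked lists, which hold peaks of any reproducibility, were read too. In replicate 1, 80 of 92 RP genes (87.0%) had a ranked peak within 500 bp of a TSS, against 63.6% of all protein-coding genes. In replicate 2 it was 61 of 92 (66.3%), against 62.1%, so the share of RP genes was close to that of all genes there. Where such a peak was present its signal was higher at RP genes, with a median of 37.6 against 20.3 over all genes in replicate 1 and 42.3 against 17.3 in replicate 2. Among the 61 RP genes with no conservative peak the medians were 27.5 in replicate 1 (49 genes with a peak) and 26.1 in replicate 2 (30 genes with a peak). Of the 44 genes in no thresholded list, 14 had a ranked promoter peak in both replicates, 18 in replicate 1 alone, 5 in replicate 2 alone and 7 in neither. The 7 are RpL7A, RpL10, RpL21, RpL24-like, RpL40, RpS3 and RpS5b. The values of RpS6 (34.1 in replicate 1 and 32.6 in replicate 2) show that a gene can miss every list with a ranked peak in both replicates.

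The 31 genes held 33 conservative peaks, since RpS29 and RpS16 each had a second peak that overlaps the first, with a signal of 27.5 and 12.3. Both peaks of such a gene overlap the same ranked peak of each replicate, so replicate values over the 33 peaks hold those of these 2 genes 2 times. All 33 summits lay within 500 bp of the TSS, from -115 to 153 bp. Their median position was -33 bp, where negative means upstream and 0 is the first transcribed base, with quartiles at -48 and -14. Of the 33 summits, 27 were upstream and 6 downstream. The 672 peaks of the same list within 500 bp of the TSS of another gene, here called other promoter peaks, had a median of -126. Within 50 bp of the TSS lay 23 of 33 RP summits (69.7%) and 67 of 672 other promoter summits (9.97%). Within 100 bp the shares were 87.9% and 29.2%. RP peaks were thus centred closer to the TSS than the promoter peaks of other genes in this list.

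**Figure D2:**
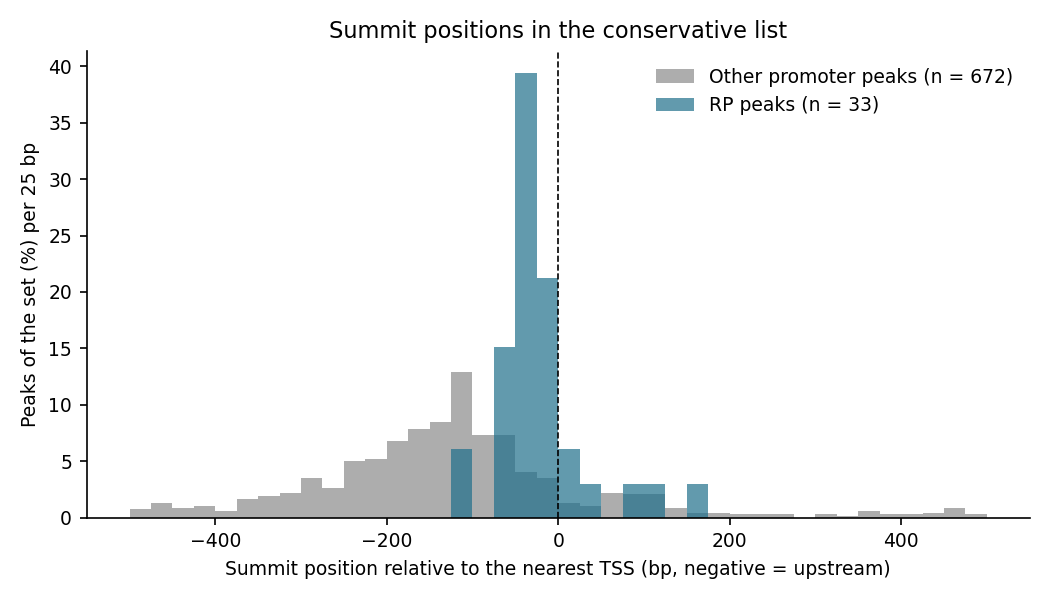
Summit position relative to the nearest TSS, in bins of 25 bp, for the 33 RP peaks and the 672 other promoter peaks of the conservative list, each as percent of its own set. RP summits gather just upstream of the TSS around the median of -33 bp, and the other promoter summits spread further upstream around -126 bp.

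The position near the TSS was found in each replicate's own list. In replicate 1 the median was -14 bp over 19 RP peaks against -136.5 bp over 468 other promoter peaks. In replicate 2 it was -46 bp over 25 RP peaks against -124 bp over 548. Between the replicates, the summits of the ranked peaks that overlap the same RP peak lay a median of 24 bp apart, against 22 bp at other promoter peaks.

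RP peaks were of middling strength. Their signal values, which are the authors' and rank peaks within a list only, had a median of 107 with quartiles at 80.2 and 143. Other promoter peaks had a median of 117 and all 1402 peaks on the chromosome arms one of 106. None of the 33 was among the 100 strongest peaks of the list, and 17 were above its median rank. The median was 114 for the 18 large-subunit peaks and 92.7 for the 15 small-subunit peaks, with ranges of 75.04 to 200.3 and 12.3 to 295. The small-subunit peaks include the overlapping second peaks of RpS29 (27.5) and RpS16 (12.3), and the large subunit has no second peak. With the strongest peak of each gene alone, the lowest RP signal was 72.5.

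The strongest RP peak was at RpS27, a zinc-finger protein of the small subunit. It had a signal of 295 (rank 104), with 104 in replicate 1 and 182 in replicate 2. Its summit lay at -12 bp of the gene on 3R, with the peak at chr3R:25247430-25247616. RpL41, the smallest ribosomal protein, followed with 200.3, at 78.9 in replicate 1 and 123 in replicate 2. RpL32, whose messenger RNA is a common reference in fly expression work, had 188, with 91.5 and 95.3. In both replicates' own lists these 3 genes had a peak past the threshold.

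RpS28b had a signal of 169, with 45.5 in replicate 1 and 137 in replicate 2, and the summit of the replicate 1 peak lay at 96 bp against -23 bp in replicate 2, so these peaks are centred apart. RpL19, near the tunnel exit, had 163, with 74.8 and 83.0. RpL14 had 153, with 47.1 and 102. Of these, RpL19 alone passed the threshold in both replicates' own lists. RpS21, known in flies for overgrowth of imaginal discs when mutant, had 152, with 40.4 and 112. RpS20 had 146, with 46.0 and 93.9. RpL23A, at the tunnel exit, had 143, with 45.0 and 94.9. For each of these 3 genes the value in replicate 2 was over 2-fold that in replicate 1, and the threshold was passed in replicate 2 alone. RpL11 had 140, with 61.9 and 71.6, and its own list peak was likewise in replicate 2 alone.

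The strongest peaks of the other 21 genes ran from 72.5 (RpS19a) to 126 (RpL4). In replicate 1 they spanned 31.1 to 75.7 and in replicate 2 30.4 to 73.4, and replicate 2 was the higher at 10 of them and replicate 1 at 11. The plot of the replicate values shows that the strongest genes have replicate 2 to the right and that the order mixes further down.

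**Figure D3:**
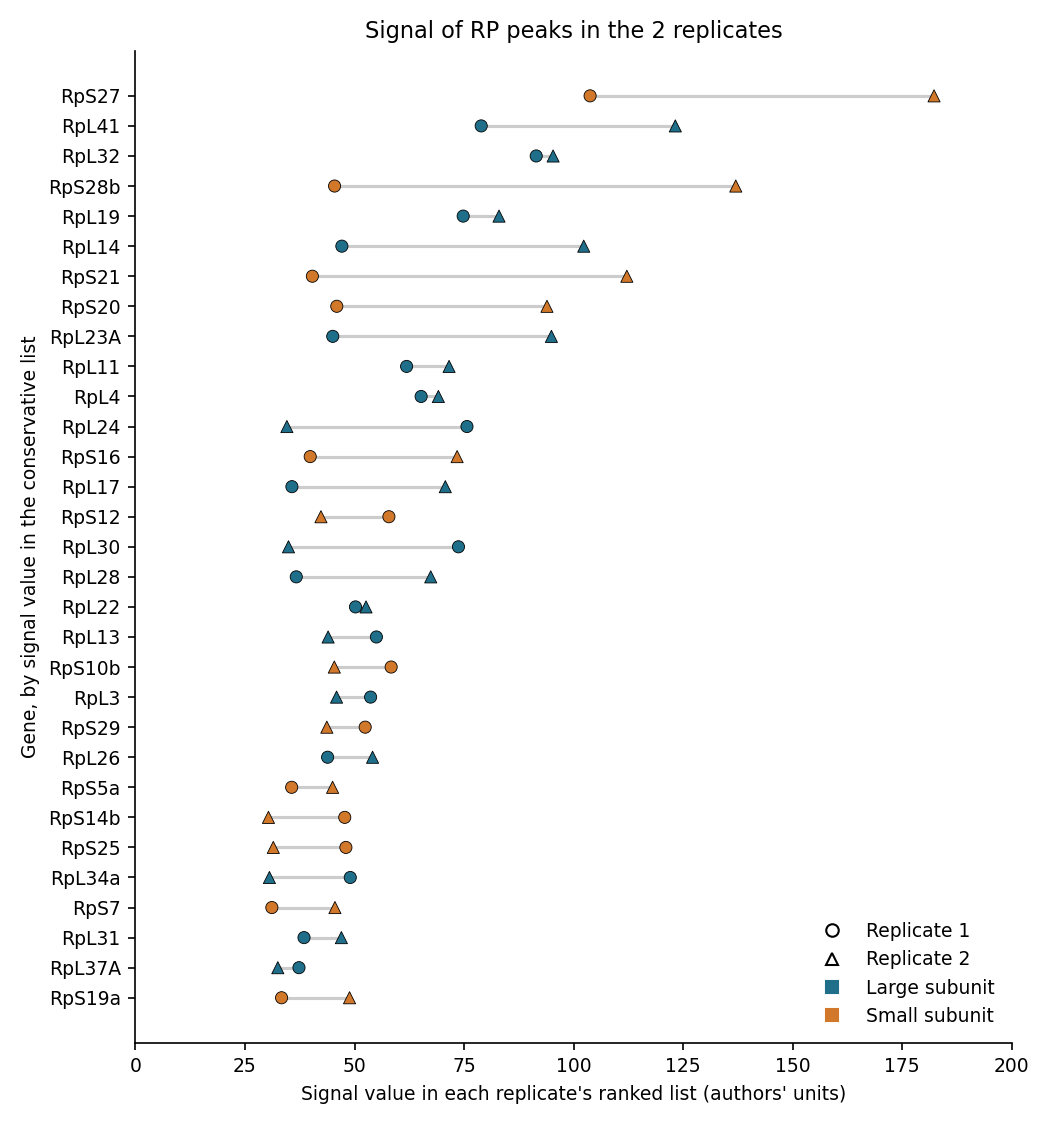
Signal value of the ranked peak in replicate 1 (circles) and replicate 2 (triangles) at each of the 31 RP genes with a conservative peak, ordered by signal in the conservative list; colour gives the subunit. All of the 10 strongest genes have the higher value in replicate 2, with the widest gap at RpS28b (45.5 and 137).

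In these lists the replicates were further apart at RP peaks than at other promoter peaks. The log2 ratio of replicate 2 to replicate 1 signal had a median of 0.21 and an SD over peaks of 0.71 (n = 33), against 0.11 and 0.46 at 668 other promoter peaks with a value in both. With the strongest peak of each gene alone (n = 31) the SD was 0.72. It ran from -1.13 at RpL24, with 75.7 in replicate 1 and 34.6 in replicate 2, to 1.59 at RpS28b, where the replicate summits lie on either side of the TSS. More than 2-fold apart were 7 of 33 RP peaks (21.2%) and 3.59% of other promoter peaks. RpS28b, RpS21, RpL14, RpL23A and RpS20 were higher in replicate 2, and RpL24 and RpL30 in replicate 1. How the authors scaled the signal is not given, so only the comparison with other peaks of the same lists is read here.

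Peaks past the threshold in both replicates' own lists overlapped 9 of 33 RP peaks (27.3%) and 338 of 672 other promoter peaks (50.3%). Since weak peaks pass less often, other promoter peaks were also taken from the signal range of the RP peaks alone, counting the strongest peak of each gene, a comparison chosen after the data were seen. In that range the shares were 25.8% of 31 RP peaks and 48.8% of 531 others, and the SD of the log2 ratio was 0.72 and 0.48. The gap lay above the median signal of the list, where 6 of 17 RP peaks (35.3%) and 76.8% of 314 others passed in both replicates, and 7 of 17 RP peaks (41.2%) against 5.75% of others were more than 2-fold apart. Up to the median signal the SDs were 0.43 over 14 RP peaks and 0.44 over 215 others with a value in both, and none of the 14 was more than 2-fold apart.

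**Figure D4:**
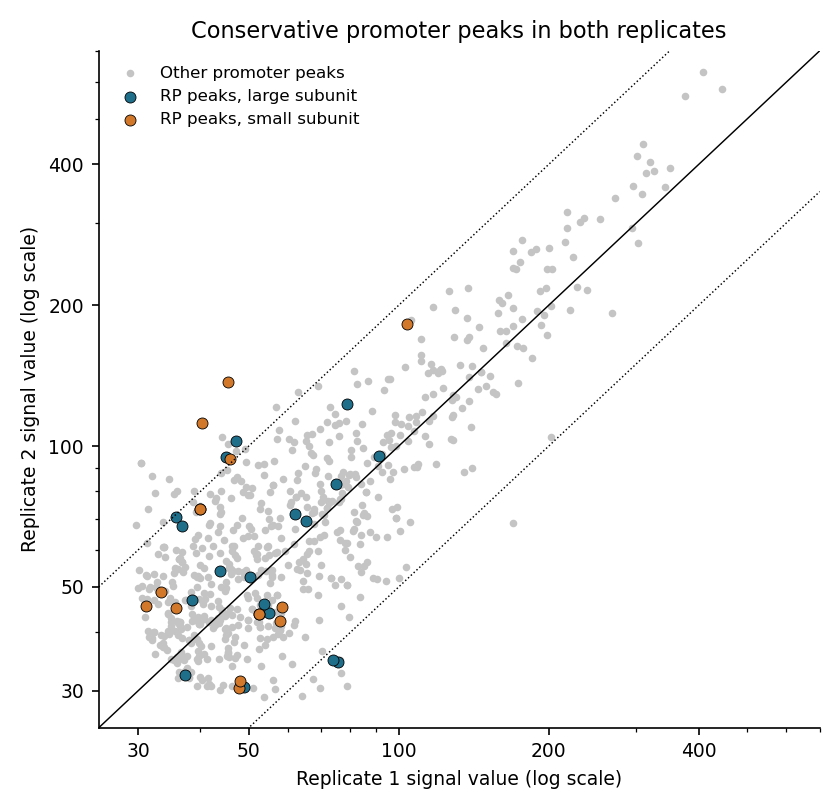
Signal in replicate 1 against replicate 2 on log axes for RP peaks (coloured by subunit) and other promoter peaks (grey) of the conservative list; the solid line is equality and the dotted lines 2-fold. Of the 33 RP peaks, 7 lie outside the dotted lines, 5 above and 2 below.

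By gene, the replicates' own lists shared 9 RP genes, which is 50% of the 18 in replicate 1 and 36% of the 25 in replicate 2. For all other protein-coding genes 542 were shared, 70.6% and 60.2% of the lists. The 9 genes are RpL3, RpL4, RpL19, RpL28, RpL32, RpL41, RpS10b, RpS16 and RpS27, and for RpL28 the peak of replicate 1 lay 712 bp downstream of the TSS and was not the conservative one. Of the 31 genes with a conservative peak, 6 had a peak in the list of replicate 1 alone, 12 in that of replicate 2 alone and 4 (RpL37A, RpS5a, RpS7 and RpS14b) in neither. Genes with an assigned peak in the list of replicate 1 and none in the conservative list were RpL7 (87.2), RpS4 (54.02) and RpL9 (50.8). Those of replicate 2 were RpL34b (73.4), RpL10Ab (47.0), RpS26 (46.0) and RpL27A (43.9). The peak of RpL34b overlaps a conservative peak of 161 that the rule gives to a neighbouring gene. RpL7, which is among the strongest RP values of replicate 1, had no ranked promoter peak in replicate 2.

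A further 12 genes had a peak in the pooled list and not in the conservative list. Among them were RpS4 (128), RpS15Aa (85.3) and RpLP0 (80.3). The pooled peaks of RpL6 and RpL23 lay at -1307 bp and 1467 bp from the TSS, outside the promoter. None of the 92 RP genes was in the conservative list and missing from the pooled list.

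Drosophila keeps more than 1 copy of some RP genes, and several of these copies are used mainly in the germline. Among 13 sets of paralogues, with 27 genes, 8 sets had exactly 1 member with a conservative peak, 5 had none and 0 had more than 1. The bound member was RpL22 and not RpL22-like, RpL24 and not RpL24-like, RpL34a and not RpL34b, RpS5a and not RpS5b, RpS10b and not RpS10a, RpS14b and not RpS14a, RpS19a and not RpS19b, and RpS28b but neither RpS28a nor RpS28-like. RpS5b and RpS19b are known from the ovary and RpL22-like from the testis, while RpL24-like resembles a yeast factor that helps assemble the large subunit and leaves it later. Of the genes in sets 8 of 27 had a conservative peak, and of the 65 outside sets 23 did.

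Counting any of the 4 lists, 11 sets had 1 member with a peak, 1 set (RpL34a and RpL34b) had 2 and 1 set (RpL37-1 and RpL37-2) had none. By gene, 13 of the 27 in sets and 35 of the 65 outside sets had a peak in any of the 4 lists. The share over all protein-coding genes was not counted for this wider definition. In this wider count RpL7, RpL10Ab, RpLP0 and RpS15Aa had a peak and RpL7-like, RpL10Aa, RpLP0-like and RpS15Ab had none. RpL34b also has a conservative peak with a signal of 161 whose summit is at -174 bp from its TSS, but the TSS of a neighbouring gene is closer, so the rule gives the peak to the neighbour. With that peak RpL34a and RpL34b would both count, so the single bound member of this set rests on the assignment.

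The ranked promoter peaks give the size of these differences. RpS28b had 45.5 in replicate 1 and 137 in replicate 2, RpS28a had 26.9 in replicate 1 and no promoter peak in replicate 2, and RpS28-like had 14.3 in replicate 1 and none in replicate 2. RpL24 had 75.7 and 34.6, and RpL24-like had no ranked promoter peak in either. RpS10b had 58.4 and 45.4, and RpS10a had none in replicate 1 and 10.2 in replicate 2. RpS14a and RpS14b, which lie in tandem on the X chromosome and encode the same protein, had 24.8 and 14.3, and 47.8 and 30.4. In each of these 4 sets the bound member had the higher value in both replicates, or the only one, which a peak in a list made from both replicates largely fixes. In RpS19, replicate 1 had 33.4 at RpS19a and 33.4 at RpS19b, and replicate 2 had 48.9 at RpS19a and no promoter peak at RpS19b, so the copies were not apart in replicate 1.

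RpL22 had 50.2 and 52.6, and RpL22-like had none in replicate 1 and 13.7 in replicate 2. RpS5a had 35.7 and 45.0, and RpS5b had none in either. RpL34a had 49.0 and 30.6, and RpL34b had 97.2 and 73.4. RpL34 was the set in which the copy without an assigned conservative peak was the higher in both replicates. In the sets with no conservative peak, RpL10Ab had 22.8 and 47.0, and RpL10Aa had none in replicate 1 and 8.63 in replicate 2. RpL37-1 had 28.7 and 25.1, and RpL37-2 had 3.42 and 12.1. RpS15Aa had 27.5 and 51.2, and RpS15Ab had 22.3 in replicate 1 and none in replicate 2. These 3 sets also had 1 copy above the other in both replicates, by a small margin at RpS15A in replicate 1. RpL7 had 87.2 and RpL7-like 6.498 in replicate 1, and RpLP0 had 40.5 and RpLP0-like 26.5, with no promoter peak at any of these 4 genes in replicate 2. Reads that fit near-identical copies could be split or dropped by the authors' alignment, whose settings are not given, and their part in these differences was not tested.

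**Figure D5:**
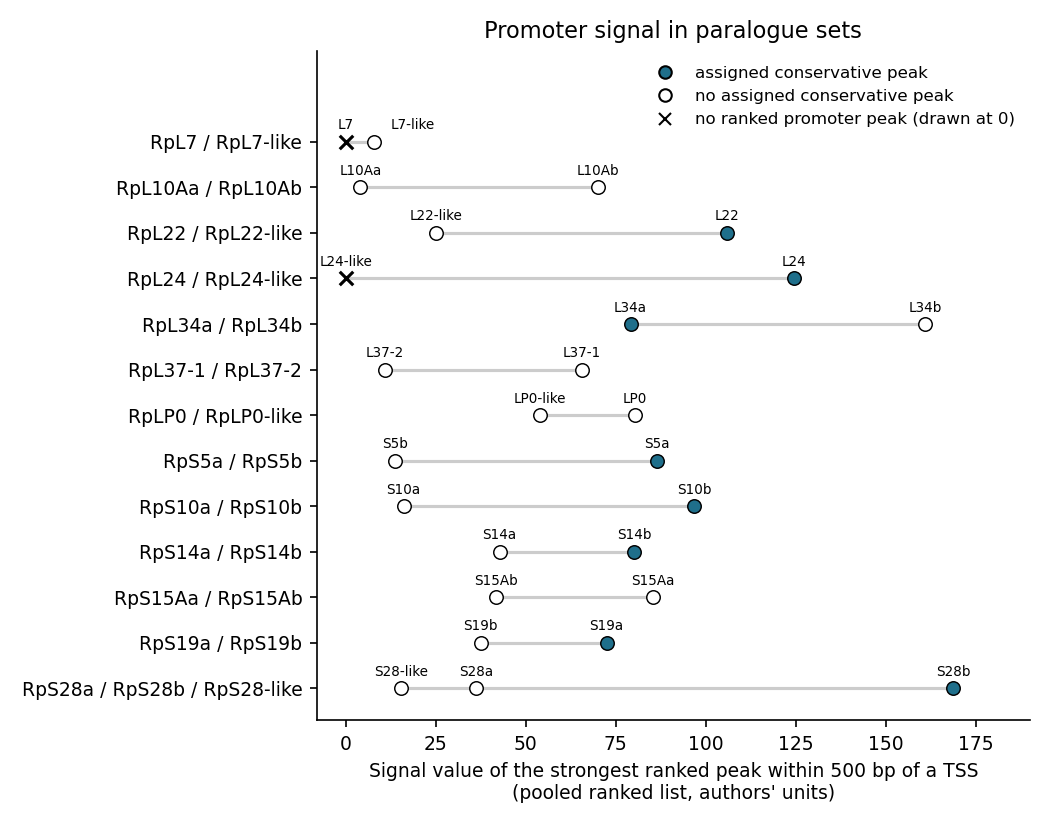
Signal of the strongest ranked peak within 500 bp of a TSS, in the pooled ranked list, for each member of the 13 paralogue sets; filled points are genes with an assigned conservative peak and crosses are genes with no ranked promoter peak in that list. RpL7 is a cross here, while the ranked list of replicate 1 held a promoter peak of 87.2 for it. In 7 of the 8 sets with a filled point it is the highest of its set, which the choice of the filled points by this signal largely fixes, and RpL34b, with 161 assigned to its neighbour, is above RpL34a at 79.1.

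The promoters of the 2 sets below carry this contrast. They are shown in the same way as those above, and the TSS is the canonical one for a gene without a peak. The windows are RpS28a at chr3R:30022599-30022748 on the minus strand, RpS28-like at chr2L:9436704-9436853 on the plus strand, RpL24 at chr2L:13395082-13395231 on the minus strand and RpL24-like at chr3R:11431533-11431682 on the minus strand, and RpS28b is printed above.
RpS28a: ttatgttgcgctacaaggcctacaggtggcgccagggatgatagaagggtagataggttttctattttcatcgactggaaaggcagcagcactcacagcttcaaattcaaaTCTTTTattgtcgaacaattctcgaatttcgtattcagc
RpS28-like: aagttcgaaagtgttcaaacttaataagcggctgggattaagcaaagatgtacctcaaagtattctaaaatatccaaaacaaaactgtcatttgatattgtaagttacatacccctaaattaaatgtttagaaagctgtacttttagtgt
RpL24: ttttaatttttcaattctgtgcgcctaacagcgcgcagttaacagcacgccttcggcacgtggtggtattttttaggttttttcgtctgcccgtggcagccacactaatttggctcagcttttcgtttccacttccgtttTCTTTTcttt
RpL24-like: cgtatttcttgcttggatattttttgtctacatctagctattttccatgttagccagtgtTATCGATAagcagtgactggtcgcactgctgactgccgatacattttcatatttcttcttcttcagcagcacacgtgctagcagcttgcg
In RpS28a the capitals TCTTTT lie 11 bases downstream of the TSS, in RpL24 TCTTTT lies 40 bases downstream of the TSS used here, and RpL24-like has the DRE, TATCGATA, 40 bases upstream.

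Promoters (250 bases before to 50 after the canonical TSS) were searched for 8 fixed elements on both strands. The pyrimidine run TCTTTT was in 60.9% of RP promoters and 29.95% of all promoters, and its longer form CTCTTTC, which can overlap it, was in 14.1% and 4.92%. On the strand of the gene, TCTTT was searched with its C within 5 bp of the TSS, a tolerance set here. It was found in 31 of 92 RP genes (33.7%) and 208 of 13968 genes (1.49%). Among RP genes it was in 10 of the 31 with and 21 of the 61 without a conservative peak. RpL32 is not in this count, which uses the canonical TSS, since its printed run lies by another TSS. Other genes with a run at a non-canonical TSS would be missed in the same way. The DRE (DNA replication-related element, bound by Dref) TATCGATA, which reads the same on both strands, was in 30.4% of RP promoters and 8.94% of all, and in 35.5% of those with and 27.9% of those without a conservative peak. Motif 1, the site of M1BP, searched as GGTCACACT, was in 9.78% and 5.86%. GAGAG of GAGA factor was in 17.4% and 30.2%, and the TATA box TATAAA was at 45.7% and 45.3%.

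The runs of the 10 genes with a conservative peak are printed to show how they lie around the start site. Their C lay between -1 (RpL14) and 5 (RpS19a) of the canonical TSS, and in none of them on the TSS base itself. Each line has 20 bases before the canonical TSS, the TSS base and 20 bases after it on the strand of the gene (RefSeq release 6 genome), with TCTTT in capitals. The windows are RpL14 at chr3L:8600986-8601026 on the plus strand, RpL24 at chr2L:13395072-13395112 on the minus strand, RpL28 at chr3L:3222938-3222978 on the minus strand, RpL3 at chr3R:11221874-11221914 on the plus strand, RpL30 at chr2L:19009217-19009257 on the minus strand, RpL4 at chr3R:27922801-27922841 on the plus strand, RpS19a at chrX:16637874-16637914 on the plus strand, RpS21 at chr2L:2856091-2856131 on the plus strand, RpS25 at chr3R:11216267-11216307 on the minus strand and RpS5a at chrX:17148244-17148284 on the minus strand.
RpL14: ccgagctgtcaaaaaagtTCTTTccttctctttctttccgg
RpL24: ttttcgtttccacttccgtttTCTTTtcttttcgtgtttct
RpL28: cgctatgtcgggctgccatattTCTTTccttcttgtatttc
RpL3: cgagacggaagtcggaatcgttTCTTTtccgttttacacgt
RpL30: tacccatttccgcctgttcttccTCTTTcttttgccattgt
RpL4: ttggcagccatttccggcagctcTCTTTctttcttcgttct
RpS19a: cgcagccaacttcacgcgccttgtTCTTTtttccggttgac
RpS21: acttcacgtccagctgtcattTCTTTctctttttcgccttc
RpS25: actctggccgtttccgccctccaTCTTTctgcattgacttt
RpS5a: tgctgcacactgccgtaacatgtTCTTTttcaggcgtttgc
The conservative summits of these genes lay at the run in RpL3 (5 bp) and near it in RpS19a (-6 bp). The others lay further away, as in RpL14 (-31 bp), RpL30 (25 bp), RpL4 (-46 bp), RpS25 (-31 bp) and RpS5a (-48 bp). Each position is from the TSS closest to the summit.

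Toy has 2 DNA-binding domains, and short cores for each were searched in the same promoters. TAATTA, a homeodomain core, was in 23.9% of RP promoters and 20.01% of all promoters, in 12.9% (4 of 31) of RP genes with a conservative peak and 29.5% (18 of 61) of those without. TCACGC, from the paired domain site, was in 9.78% of RP promoters and 6.24% of all, in 16.1% (5 of 31) of those with a peak and 6.56% (4 of 61) of those without. The counts in RP genes with a peak rest on 4 and 5 genes, and the differences were not tested.

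In windows of 201 bp centred on the summits, the RP peaks differed from other promoter peaks in most of these elements. TCTTTT was in 51.5% of 33 RP windows and 22.0% of 672 others, and the DRE in 27.3% and 2.98%. GAGAG was in 9.09% and 21.9%, TATAAA in 15.2% and 40.2%, and TAATTA in 6.06% and 18.5%. TCACGC was in 6.06% and 4.61%. The median GC content of the windows was 44.3% and 34.3%, and its part in the counts of AT-rich elements was not tested. RP summits also lie closer to the TSS than other promoter summits, and the part of this in the counts was not tested. Over the 300-base promoters the GC medians were 37.5% for RP genes and 38% for all genes.

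The DRE was present in the summit windows of 9 RP peaks, of which 7 are printed here. The search was limited to these windows, so a place near the summit follows from it. Each line has 16 bases on either side of TATCGATA, on the strand of the gene (RefSeq release 6 genome). The windows are RpS12 at chr3L:13023295-13023334 on the plus strand, RpL28 at chr3L:3223029-3223068 on the minus strand, RpS10b at chrX:19597938-19597977 on the plus strand, RpS29 at chr3R:9778041-9778080 on the plus strand, RpS25 at chr3R:11216323-11216362 on the minus strand, RpL34a at chr3R:26059287-26059326 on the minus strand and RpS7 at chr3R:30209004-30209043 on the minus strand.
RpS12: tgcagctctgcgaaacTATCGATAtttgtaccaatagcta
RpL28: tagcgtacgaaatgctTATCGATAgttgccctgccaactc
RpS10b: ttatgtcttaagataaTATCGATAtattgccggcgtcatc
RpS29: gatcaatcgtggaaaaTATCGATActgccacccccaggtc
RpS25: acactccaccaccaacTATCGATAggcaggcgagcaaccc
RpL34a: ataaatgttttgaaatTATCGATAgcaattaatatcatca
RpS7: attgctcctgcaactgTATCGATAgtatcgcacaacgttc
In RpS12 the DRE lay from 41 to 34 bases upstream of the TSS with the summit at -48, and in RpL34a from 43 to 36 bases upstream with the summit at -69. In RpS29 it lay downstream, from 15 to 22, with the summit at -35. In RpL28 it lay from -92 to -85 (summit at -54), and in RpS10b from -77 to -70 (summit at -44). In RpS25 it lay from -59 to -52 (summit at -31), and in RpS7 from -79 to -72 (summit at -16).

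Several RP genes host a snoRNA, a guide RNA of ribosomal RNA modification that is cut from an intron. Of the 31 genes with a conservative peak 15 (48.4%) held an annotated snoRNA gene, of the 61 without 13 (21.3%), and of all protein-coding genes 0.601%. The TSS of another protein-coding gene was within 500 bp at 16 of 31 (51.6%) and 21 of 61 (34.4%), against 30.8% of all. At RpL13 that neighbour is Dref, at RpL14 Nelf-E and at RpL28 eIF1, so these peaks sit between or near a pair of promoters. The median length was 1445 bp for RP genes with a peak and 1186 bp for those without, and the part of length in the snoRNA count was not tested. By chromosome arm a conservative peak was at 7 of 14 RP genes on X, 9 of 23 on 3R, 5 of 14 on 3L, 5 of 19 on 2L, 5 of 21 on 2R and 0 of 1 on the fourth chromosome. Over all genes the share was 10.1% on X and between 7.43% and 8.76% on the other long arms.

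Beyond the RP genes, 46 genes of ribosome assembly and of RP regulation were listed, and 44 were found in the annotation. Of these 12 had a conservative peak (27.3%, beside the 8.25% of all genes), 7 of 32 assembly genes and 5 of 12 regulators, and 8 of the 12 had it within 500 bp of the TSS. The pooled list also gave 12, with Surf6 (71.9) in it and sta not, and the lists of replicate 1 and replicate 2 gave 8 each. The assembly factor eIF6, which keeps the subunits from joining too early, had the strongest, with 729 (320 in replicate 1 and 405 in replicate 2) at -117 bp. It stands above every RP peak. REPTOR, a transcription factor of the Tor pathway, had 355 (159 and 176) at -167 bp, and foxo, a factor of insulin signalling, had 354 (184 and 176) at -3345 bp. Myc, which drives ribosome production, had 136 (70.3 and 72.1) at -9299 bp. Ns2 had 129 (57.9 and 70.2) at -127 bp, and l(3)72Dn 128 (46.8 and 84.8) at -100 bp. The 7 assembly genes include sta and Rack1, which are ribosome components with other symbols rather than assembly factors. Their peaks were at the TSS, that of sta with 71.9 at 34 bp and that of Rack1 with 80.4 at -4 bp. The peak of sta was in the conservative list alone and in none of the other 3 thresholded lists. In this list M1BP, Dref and Trf2, which act at RP promoters in flies, and the RP-mutant response factors Xrp1, Irbp18 and crc had no assigned conservative peak. The peak of RpL13 (105) lies within 500 bp of the TSS of Dref too, and the rule gives it to RpL13, whose TSS is closer.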

How the data were processed

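ChIP-seq peak lists of 2 replicates were used as deposited. Per the labels, coordinates are dm6. Peaks were ranked by their irreproducible discovery rate (IDR). Per the deposited text, each replicate's lists use its own alignments, the series' lists both, all with a further input that is shared. The deposited signal value per peak is the authors', and the ranked lists give the −log10 of the global IDR, also deposited by the authors. The sources used here name no aligner or peak caller and do not explain the signal scaling. Peak lists hold no read counts, so depth is unknown. By their values, conservative and pooled peaks all had an IDR of 0.01 or less. The series' 2 ranked lists hold 8 columns each that match no sample and were left out.

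Peaks on the chromosome arms were assigned to the protein-coding gene (Ensembl release 115) with the TSS closest to the summit. Replicate values at a conservative peak are those of the strongest overlapping ranked peak (any shared base). Python 3.11.15, pandas 2.3.3, NumPy 2.4.6 and SciPy 1.17.1 were used, and the assignment was tested on simulated peaks. Genes, paralogue sets, elements and gene lists were chosen with earlier results of these data known. Named were the 10 strongest RP peaks, every paralogue, up to 4 strongest genes of the other lists, the extreme replicate ratios and up to 6 bound pathway genes. sta, Rack1, single unbound genes and genes named for their role were chosen after their values were seen. Alternatives were other lists, stricter thresholds, other assignment rules and other sequence windows. With 1 group there is no contrast and no test across samples. One result that the rule for named genes would give is not reported here.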

Additional observations from a re-analysis of the deposited data

How the results depend on the processing

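Of 82 alternative values, 61 stayed close to the reported value and 21 moved. Counts were called close up to 1.5-fold, so that 43 genes in the pooled list were close to 31. Shares, positions and signals were called close within the SD of the 2 single-replicate values, which are themselves alternatives. The log2 ratio was called close within its SD over peaks (0.71). These margins are wide, so the 61 does not measure robustness. RP genes with a peak numbered 10 at an IDR of at most 0.001 (7 large, 3 small; 3.67% of all genes) and 17 with a signal above the list's median (11 large, 6 small; 4.503% of all genes). With 1 replicate left out they were 18 to 25 (large 12 to 16, small 6 to 9). Promoter peaks made up 93.3% in the pooled list and 94.7% to 100% with 1 replicate left out. The median signal was 92.7 in the pooled list, 158 at the stricter IDR, 143 above the median signal and 55.0 to 70.7 in the single replicates' lists, whose scale may differ. Overlap with both replicates fell to 5 peaks at the stricter IDR, where fewer peaks were kept. Of the element counts, GAGAG was in 8 and TCACGC in 5 promoters on the gene's strand alone. Within 100 bp of the TSS, TATAAA was in 16 and TAATTA in 6. TCTTT with its C within 5 bp of the TSS was in 31. The cause of the changes in element counts was not tested. The median position stayed upstream, between -49.5 and -14 bp. No paired analysis was possible because both replicates form a single group. Depth is unknown and the control was not analysed here, which limits every value.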

Other observations

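A run of 16 bases, cgcagccaacttcacg, was noticed in the promoters of RpS28b, RpS21 and RpS19a after the printed sequences had been read. It is the longest run that these 3 promoters share, and it was then counted in every promoter window on both strands. Of all 13968 promoters 3 held it, those of these 3 small-subunit genes, each of which had a conservative peak. The longest run shared by them and RpL13 has 11 bases, ccaacttcacg. It was in 4 of the 31 RP promoters with a conservative peak, in 0 of the 61 without, and in 5 of all promoters (0.0358%). Both runs were defined from chosen genes that all had a conservative peak. The printed windows were mostly those of genes with a peak. The counts among genes with a peak thus follow from the choice and cannot show a link with binding. In windows of 201 bp on the summits the shorter run was in 4 of 33 RP peaks and in 0 of 672 other promoter peaks. The 4 windows are those of the genes that define the run, so this contrast also follows from the choice. The windows below are from the RefSeq release 6 genome, with the shorter run in capitals and 16 bases on either side. They are RpL13 at chr2L:9967294-9967336 on the minus strand, RpS19a at chrX:16637863-16637905 on the plus strand, RpS21 at chr2L:2856072-2856114 on the plus strand and RpS28b at chrX:9554578-9554620 on the plus strand.
RpL13: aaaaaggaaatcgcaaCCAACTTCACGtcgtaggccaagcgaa
RpS19a: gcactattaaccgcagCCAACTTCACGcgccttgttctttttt
RpS21: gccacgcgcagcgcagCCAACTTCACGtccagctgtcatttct
RpS28b: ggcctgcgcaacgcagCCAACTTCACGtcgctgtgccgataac
The summit lay 4 bp from the middle of the shorter run in RpS19a, 8 bp in RpS28b, 16 bp in RpL13 and 43 bp in RpS21. Before the canonical TSS its first base lay between 15 (RpS19a) and 29 (RpS28b) bases, and in RpL13 the run is on the strand opposite to the gene. The run ends in TCACG, the start of the paired domain core TCACGC counted in the report, and among these windows RpS19a alone holds the whole core. RpS28b and RpS21 had the largest ratios of replicate 2 to replicate 1 among RP peaks, while RpL13 was higher in replicate 1 (55.0 and 44.0). No test was made, since the run was chosen from these sequences.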
